A study of Homo sapiens with 12 samples.

Results

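The genes examined here encode nuclear-encoded subunits of the mitochondrial respiratory chain and of ATP synthase. There are 85 of them among the 28278 gene symbols that the tables list on chromosomes 1 to 22, X and Y. They were chosen by name alone: symbols that begin with NDUFA, NDUFB, NDUFC, NDUFS or NDUFV and a digit, SDHA to SDHD, symbols that begin with UQCR, COX4 to COX8 followed by A, B or C, and symbols that begin with ATP5 and a letter, without hyphenated names and pseudogenes. The name rule used no measured value, though the genes were chosen with earlier results of these data known. Complex I holds 36 of them, complex II 4, complex III 9, complex IV 17 and complex V 19. NDUFA4 and its paralog NDUFA4L2 are counted with complex IV, where NDUFA4 is now placed, and ATP5IF1, the inhibitor protein of ATP synthase, is counted with complex V. The name patterns do not take COX4I1, CYC1 or NDUFAB1, which are described with the related gene lists.

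Complex I oxidises NADH and complex II oxidises succinate, and both pass electrons to ubiquinone. Complex III hands them to cytochrome c and complex IV to oxygen, while complexes I, III and IV pump protons across the inner mitochondrial membrane. Complex V, the ATP synthase, uses the proton gradient to make ATP, and the nuclear-encoded subunits of all these complexes are translated in the cytosol and imported into mitochondria.

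The study used 2 human cancer cell lines, PC3 from a prostate adenocarcinoma and MG63 from an osteosarcoma, both labelled wild type. Cells of each line were transfected at 10 nM with one of 3 reagents, a non-targeting control (siControl), an siRNA to LARP4A (siLARP4A) or an siRNA to LARP4B (siLARP4B), by Lipofectamine RNAiMAX, and polyadenylated RNA was sequenced 72 h later. The 6 groups are therefore PC3 siControl, PC3 siLARP4A, PC3 siLARP4B, MG63 siControl, MG63 siLARP4A and MG63 siLARP4B, with 2 libraries each and 12 in all. The comparisons ask how transcript levels change when either protein is depleted in either line. LARP4A, the product of the gene listed as LARP4, and LARP4B are La-related RNA-binding proteins that are known to act on the stability and translation of polyadenylated mRNA. Each line is a single tumour line, and siControl libraries of a line serve as the control for both siRNAs, so the siLARP4A and siLARP4B comparisons of a line share them. The series text calls the libraries of a group biological replicates but names no separate passage or day, so p-values measure only the spread between these libraries.

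The libraries held 16950119 to 24864977 fragments. Levels are given as FPKM, fragments per kilobase of mRNA model scaled to the size of the library, and differences as log2 fold changes with standard errors (SE) from edgeR's quasi-likelihood F-test on the fragment counts, with n = 2 libraries per group. A gene was called changed when its Benjamini-Hochberg adjusted p over all 16091 genes tested was under 0.05, and every test was two-sided. Shares over all genes tested come from this fit. They were not counted for other settings, such as an offset for mRNA length or 1 library left out. The marker lists mostly followed the labelled origin: 9 epithelial carcinoma markers summed to 1119 to 1439 FPKM in PC3 libraries and 54.7 to 72.4 in MG63 libraries, and 9 mesenchymal markers summed to 45.8 to 60.6 FPKM in PC3 and 2680 to 3528 in MG63. Between the siControl groups all 9 epithelial markers were higher in PC3 and 7 of the 9 mesenchymal markers higher in MG63. TWIST1 was higher in PC3, at 28.4 against 7.41 FPKM, and the bone factor RUNX2 was near 0 in both, at 0.260 against 0.159 FPKM with no call. LARP4 stood at 18.9 and 19.4 FPKM in the siControl libraries, 2.36 and 2.47 after siLARP4A and 18.8 and 19.0 after siLARP4B of PC3, with a log2 fold change of -2.98 (SE 0.07, edgeR adjusted p = 6.8e-13) after siLARP4A. In MG63 it stood at 8.18 and 8.50 FPKM in the siControl libraries, 2.11 and 2.19 after siLARP4A and 10.6 and 11.5 after siLARP4B, with -1.96 (SE 0.07, edgeR adjusted p = 2.3e-10) after siLARP4A. LARP4B stood at 7.02 and 7.18 FPKM in the siControl libraries, 6.68 and 6.97 after siLARP4A and 1.35 and 1.26 after siLARP4B of PC3 and changed by -2.45 (SE 0.08, edgeR adjusted p = 1.6e-11) after siLARP4B. In MG63 it stood at 6.64 and 6.78 FPKM in the siControl libraries, 6.95 and 7.04 after siLARP4A and 1.89 and 2.20 after siLARP4B and changed by -1.70 (SE 0.07, edgeR adjusted p = 7.8e-10) after siLARP4B. Each target was low in the libraries labelled for its own siRNA, and LARP4 was also higher after siLARP4B in MG63, by 0.43 (SE 0.06, edgeR adjusted p = 0.0001).

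Of the 85 genes, 78 passed edgeR's filter on low counts and 76 had a mean of at least 5 FPKM over the 12 libraries. Their mRNA models were short, with a median of 1067 bases against 3203 over all genes tested, and 38 of the 78 (48.7%) were under 1000 bases against 7.78% of all genes tested. Their median level was 71.3 FPKM against 5.64 over all genes tested. The 7 that were not tested were the tissue-type isoforms COX6A2 (8 fragments over the 12 libraries), COX7A1 (10), COX7B2 (0) and COX8C (0), the ATP synthase g-subunit copy ATP5MGL (3), and the complex I subunits NDUFA3 (36) and NDUFA6 (0). The last pair are listed also on alternate contigs. Summed over all their rows they reached only 2 to 44 fragments per library for NDUFA3 and 4 to 103 for NDUFA6, so no level is given for either. Among the genes tested, 15 overlapped another gene on the opposite strand and 9 on the same strand. The handling of strand is not given in the sources used here, so reads of such partners cannot be told apart.

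**Figure D1:**
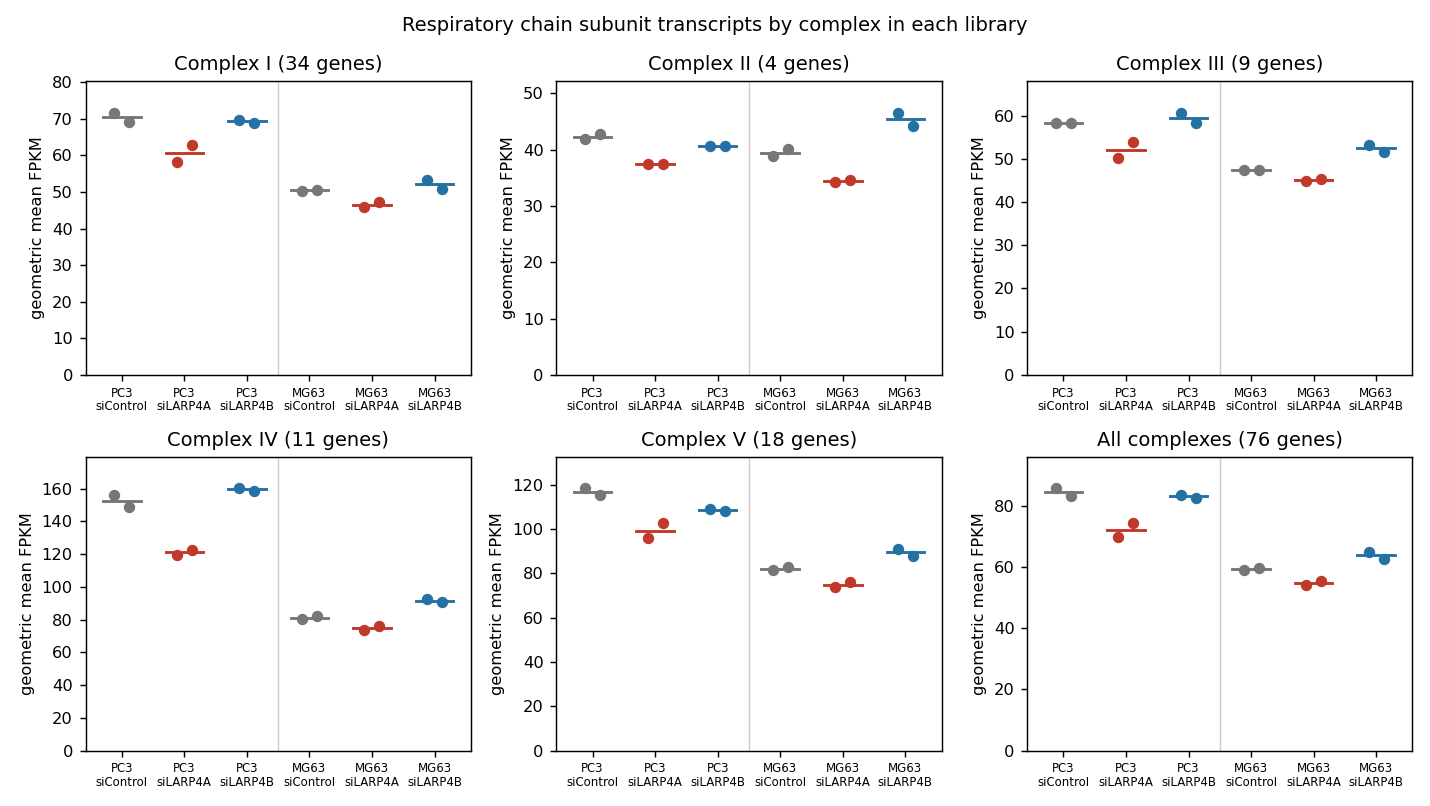
Geometric mean FPKM of the subunit genes of each complex with a mean of at least 5 FPKM, by group; points are the 2 libraries of a group, lines their mean, and the y axis starts at 0. In all 5 complexes both siLARP4A libraries lie below both siControl libraries of the same line, and in MG63 both siLARP4B libraries lie above them.

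Transcript levels of subunits of all 5 complexes were lower after siLARP4A in PC3. The geometric mean over the 76 genes was 85.8 and 83.3 FPKM in the PC3 siControl libraries, 69.8 and 74.3 after siLARP4A and 83.7 and 82.5 after siLARP4B. In MG63 it was 59.1 and 59.8 FPKM in siControl, 54.0 and 55.4 after siLARP4A and 65.1 and 62.6 after siLARP4B. The siLARP4A libraries were the lowest of each line, and the siLARP4B libraries of MG63 were the highest of that line, without overlap, while siControl and siLARP4B overlapped in PC3. The plot of geometric means by complex shows the same order within each complex of MG63.

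In PC3, 40 of the 78 subunit genes tested fell after siLARP4A and 3 rose, where over all genes tested 33.6% were called, 16.0% as lower and 17.6% as higher. Their median log2 fold change was -0.19 against 0.03 for all genes tested. By complex, 15 of 34 genes fell and 1 rose in complex I, 2 of 4 fell in complex II, 5 of 9 fell and 1 rose in complex III, 9 of 13 fell and 1 rose in complex IV, and 9 of 18 fell in complex V. The medians were -0.17, -0.12, -0.13, -0.24 and -0.20 from complex I to V. Of the 38 genes with mRNAs under 1000 bases 23 fell, and of the 40 longer ones 17 fell and 3 rose. An offset for mRNA length moved the median to -0.12 with 30 genes lower and 3 higher. Without PC3 siControl replicate 1 the counts were 24 lower and 3 higher.

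In MG63, 19 of the 78 fell after siLARP4A and 2 rose, where 24.8% of all genes were called, 12.5% as lower and 12.3% as higher. The share of subunit genes called in either direction, 26.9%, was near that background, and the share called lower was above it. The median was -0.12 against 0.00 for all genes tested. Complex I had 9 genes lower and 1 higher, complex II 2 lower, complex III 1 lower, complex IV 1 lower and 1 higher, and complex V 6 lower. With an offset for mRNA length the median was -0.04 and the counts were 11 lower and 2 higher, so both depended on how length was treated. Leaving out any one of the 4 libraries compared left 6 to 10 genes lower and 1 higher.

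Of the 78 genes tested, 16 fell after siLARP4A in both lines, and the share of all genes tested that did so was not counted. These 16 genes came from every complex. They were NDUFA7, NDUFB1, NDUFB3, NDUFB10, NDUFC1, NDUFC2, NDUFS8 and NDUFV2 of complex I, SDHA and SDHD of complex II, UQCR10 of complex III, COX7C of complex IV, and ATP5F1B, ATP5F1C, ATP5IF1 and ATP5MC1 of complex V. No subunit gene rose in both lines. Those not described further were NDUFB3 (-0.29 in PC3 and -0.23 in MG63), NDUFB10 (-0.34 and -0.26), NDUFC2 (-0.29 and -0.22), NDUFS8 (-0.32 and -0.25) and ATP5F1C (-0.28 and -0.16). Of the 16, only COX7C and ATP5F1B kept their calls in both lines under all 20 alternatives run for each comparison. In MG63 the call was lost under 15 alternatives for NDUFC2, 11 for ATP5F1C, 9 for NDUFB3, 8 for NDUFS8 and for NDUFV2, and 6 for NDUFB10 and for UQCR10, in each case with the length offset among them. Over the 76 genes with a mean of at least 5 FPKM, log2 fold changes after siLARP4A in PC3 and MG63 had a Pearson r of 0.786 and a Spearman rho of 0.721, and r was 0.731 without COX7C. Over all 78, with the low-level COX6B2 and NDUFA4L2 included, r was 0.381 and rho 0.666, and over all genes tested they were 0.187 and 0.371. The points of these correlations are genes, not replicates, and the lines share no library.

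**Figure D2:**
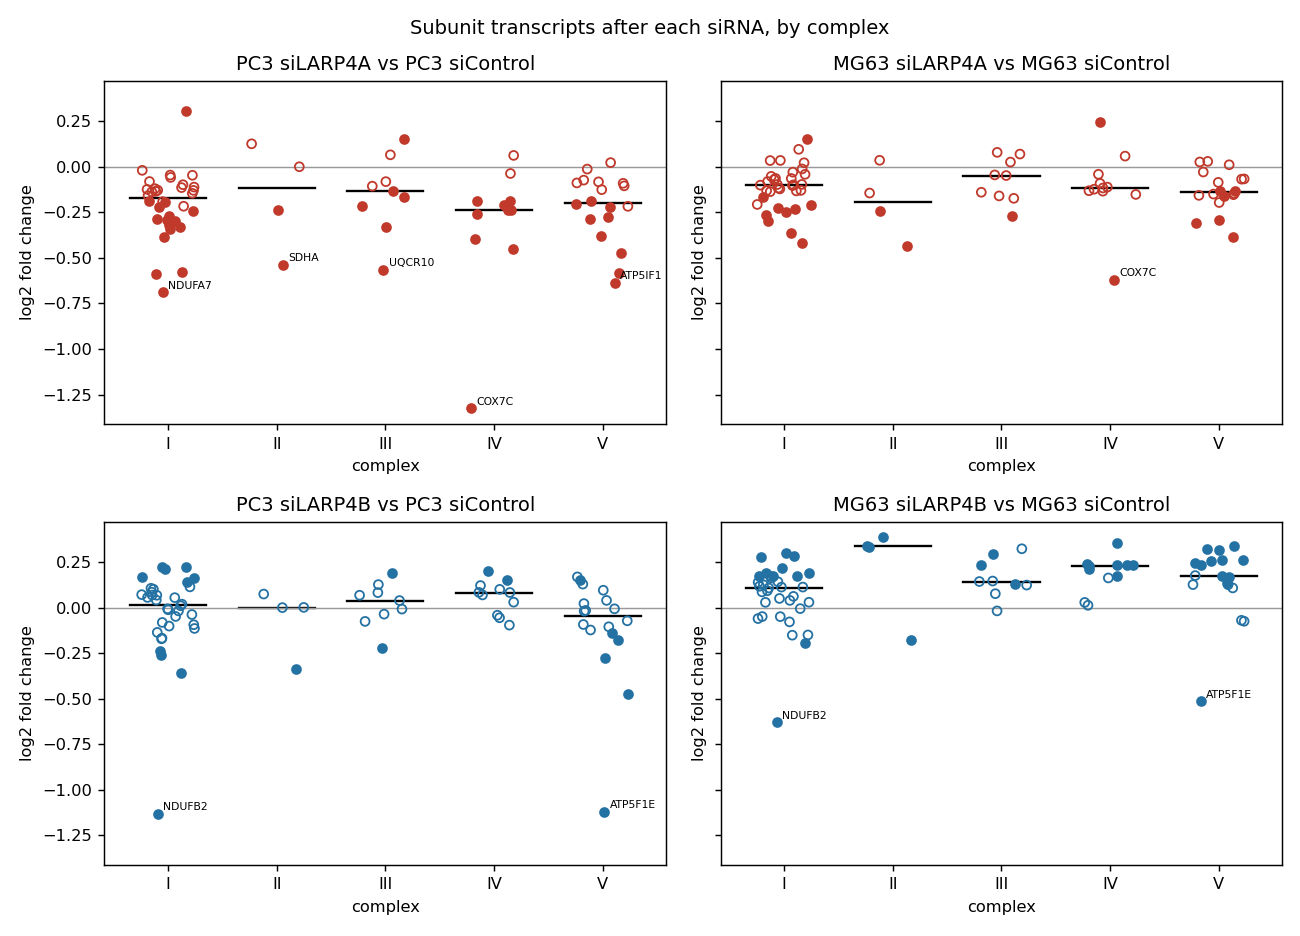
Log2 fold change of each subunit gene with a mean of at least 5 FPKM, by complex, for each siRNA against siControl in each line; filled points passed an adjusted p of 0.05, open points did not, and bars are medians per complex. COX7C at -1.33 is the lowest point for PC3 siLARP4A, and NDUFB2 at -1.13 and ATP5F1E at -1.12 stand below all others for PC3 siLARP4B.

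COX7C, a small nuclear-encoded subunit of cytochrome c oxidase, had the largest fall of the group after siLARP4A. It lies at chr5:86617941-86620962 on the plus strand of GRCh38. It stood at 705 and 675 FPKM in the siControl libraries, 256 and 289.8 after siLARP4A and 736 and 721 after siLARP4B of PC3. The 2 siLARP4A libraries were far below the other 4, with a log2 fold change of -1.33 (SE 0.06, edgeR adjusted p = 5.2e-10), or 39.9% of the siControl level. In MG63 COX7C stood at 266 and 276 FPKM in the siControl libraries, 174 and 178 after siLARP4A and 316 and 288 after siLARP4B. There too the siLARP4A libraries were the lowest, with -0.62 (SE 0.06, edgeR adjusted p = 2.8e-06), or 65.0% of siControl, and after siLARP4B the difference was 0.17 (SE 0.06, edgeR adjusted p = 0.035) in MG63 and 0.07 (SE 0.06, edgeR adjusted p = 0.35) in PC3. In PC3 siControl COX7C was the second most abundant of these transcripts per kilobase after ATP5F1B, and after siLARP4A its PC3 libraries lay on either side of the MG63 siControl libraries.

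**Figure D3:**
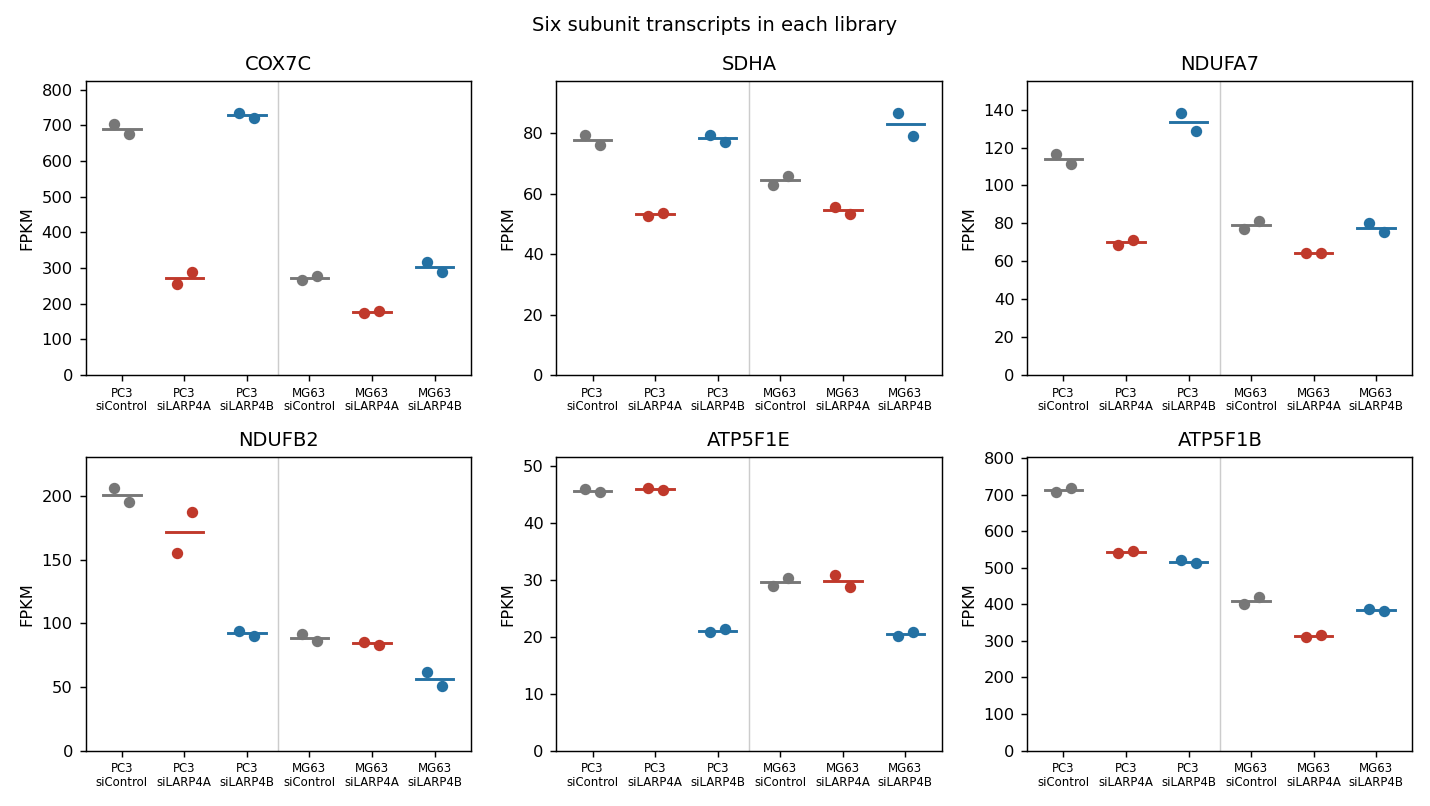
FPKM of 6 subunit transcripts in each library; points are the 2 libraries of a group, lines their mean, and every y axis starts at 0. COX7C, SDHA and NDUFA7 are lowest after siLARP4A in both lines, NDUFB2 and ATP5F1E are lowest after siLARP4B in both lines, and ATP5F1B is low after both siRNAs in PC3.

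In complex I the lowest values after siLARP4A in PC3 belonged to accessory subunits. NDUFA7, an accessory subunit, stood at 116 and 111 FPKM in the siControl libraries, 68.6 and 71.4 after siLARP4A and 138 and 128 after siLARP4B of PC3, and its log2 fold change after siLARP4A was -0.69 (SE 0.06, edgeR adjusted p = 1.2e-06). In MG63 it stood at 76.9 and 81.1 FPKM in the siControl libraries, 64.2 and 64.3 after siLARP4A and 80.0 and 75.4 after siLARP4B, with -0.30 (SE 0.07, edgeR adjusted p = 0.0041) after siLARP4A. Both siLARP4A libraries lay below both siControl libraries in each line. After siLARP4B it rose in PC3 by 0.22 (SE 0.06, edgeR adjusted p = 0.0096) and differed by -0.01 (SE 0.07, edgeR adjusted p = 0.98) in MG63. NDUFB1, an accessory subunit of the membrane arm, fell by 0.58 (SE 0.08; edgeR adjusted p = 7.1e-05) in PC3 and by 0.42 (SE 0.09; edgeR adjusted p = 0.0029) in MG63. NDUFC1, another small membrane-arm subunit, fell by 0.59 (SE 0.08; edgeR adjusted p = 3.4e-05) and 0.36 (SE 0.08; edgeR adjusted p = 0.0052). NDUFA5 was the only complex I gene that rose in PC3 after siLARP4A, by 0.31 (SE 0.06, edgeR adjusted p = 0.00085), and NDUFA10 the only one in MG63, by 0.15 (SE 0.05, edgeR adjusted p = 0.033).

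The NDUFS and NDUFV genes of complex I were counted as a separate set, chosen by name. Of the 11 NDUFS and NDUFV genes, which encode the NADH-oxidising and iron-sulfur subunits and their partners, 4 fell after siLARP4A in PC3 and 2 in MG63, with medians of -0.13 and -0.08. Their shares called, 36.4% and 18.2%, were near or below the 33.6% and 24.8% over all genes tested. All of these calls were lower, where 16.0% and 12.5% of all genes tested were called lower. The log2 fold changes were negative for 11 of the 11 genes in PC3 and for 8 in MG63. NDUFV2, an iron-sulfur subunit of the NADH-binding module, fell after siLARP4A and rose after siLARP4B in both lines. It stood at 103 and 102 FPKM in the siControl libraries, 84.5 and 80.1 after siLARP4A and 114 and 117 after siLARP4B of PC3. In MG63 it stood at 81.3 and 75.8 FPKM in the siControl libraries, 68.2 and 67.7 after siLARP4A and 90.0 and 90.4 after siLARP4B. Its log2 fold changes were -0.30 (SE 0.06, edgeR adjusted p = 0.001) and 0.17 (SE 0.06, edgeR adjusted p = 0.028) in PC3, then -0.21 (SE 0.06, edgeR adjusted p = 0.019) and 0.22 (SE 0.06, edgeR adjusted p = 0.011) in MG63. No 2 of the 3 groups of a line overlapped. NDUFV2 was the only subunit gene called in all 4 comparisons with siControl, and of these calls the rise in PC3 was lost under 12 of 20 alternatives and the fall in MG63 under 8.

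Complex II, succinate dehydrogenase, holds the flavoprotein SDHA, the iron-sulfur protein SDHB and the membrane anchors SDHC and SDHD. SDHA stood at 79.3 and 76.2 FPKM in the siControl libraries, 52.6 and 53.7 after siLARP4A and 79.5 and 77.1 after siLARP4B of PC3, and at 62.9 and 65.8 FPKM in the siControl libraries, 55.6 and 53.3 after siLARP4A and 86.9 and 79.2 after siLARP4B of MG63. It was lowest after siLARP4A in both lines, with -0.54 (SE 0.05, edgeR adjusted p = 1.6e-06) in PC3 and -0.24 (SE 0.05, edgeR adjusted p = 0.0031) in MG63, and highest after siLARP4B in MG63, with 0.39 (SE 0.05, edgeR adjusted p = 3.9e-05). In PC3 its siLARP4B libraries overlapped those of siControl. SDHD stood at 61.6 and 64.8 FPKM in the siControl libraries, 53.9 and 52.2 after siLARP4A and 64.4 and 62.7 after siLARP4B of PC3 and at 57.5 and 59.2 FPKM in the siControl libraries, 43.3 and 43.2 after siLARP4A and 72.9 and 72.4 after siLARP4B of MG63. It fell after siLARP4A by 0.24 (SE 0.05; edgeR adjusted p = 0.0028) in PC3 and by 0.43 (SE 0.05; edgeR adjusted p = 3.7e-05) in MG63, and rose after siLARP4B in MG63 by 0.33 (SE 0.05, edgeR adjusted p = 0.0002). SDHB did not pass the test after siLARP4A in either line and rose after siLARP4B in MG63 by 0.34 (SE 0.06, edgeR adjusted p = 0.00053). SDHC went the other way after siLARP4B, with -0.34 (SE 0.05, edgeR adjusted p = 0.00014) in PC3 and -0.18 (SE 0.05, edgeR adjusted p = 0.018) in MG63.

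In complex III, UQCR10, a small subunit next to cytochrome c1, stood at 64.4 and 60.6 FPKM in the siControl libraries, 39.7 and 44.1 after siLARP4A and 61.8 and 63.2 after siLARP4B of PC3. It fell after siLARP4A by 0.57 (SE 0.07; edgeR adjusted p = 2e-05) in PC3 and by 0.27 (SE 0.07; edgeR adjusted p = 0.012) in MG63. UQCRC1, a core protein, was the only complex III gene that rose in PC3 after siLARP4A, by 0.15 (SE 0.05, edgeR adjusted p = 0.04), and this call was lost under 10 of the other settings tried. UQCRFS1, the Rieske iron-sulfur protein, differed by -0.11 (SE 0.07, edgeR adjusted p = 0.24) and -0.16 (SE 0.07, edgeR adjusted p = 0.1) after siLARP4A. UQCRH, the hinge protein, fell by 0.17 (SE 0.06, edgeR adjusted p = 0.034) in PC3, a call that the length offset ended. Its intronless copy UQCRHL, at 10.8 to 16.6 FPKM against 265 to 409 for UQCRH, cannot be told apart from UQCRH in reads that match both, and its values are uncertain.

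In complex IV outside COX7C, COX8A and COX5B had the lowest values among the genes called lower in PC3 after siLARP4A. COX8A, the ubiquitous form of subunit VIII, changed by -0.45 (SE 0.05, edgeR adjusted p = 1.3e-05) in PC3 and differed by -0.15 (SE 0.05, edgeR adjusted p = 0.057) in MG63. COX5B, a subunit on the matrix side, changed by -0.39 (SE 0.06, edgeR adjusted p = 0.00016) in PC3 and differed by -0.11 (SE 0.07, edgeR adjusted p = 0.25) in MG63. COX7A2L, which is known to join complexes III and IV into supercomplexes, stood at 26.6 and 26.4 FPKM in the siControl libraries, 31.4 and 31.4 after siLARP4A and 26.6 and 26.1 after siLARP4B of MG63. It was the only complex IV gene that rose in MG63 after siLARP4A, by 0.25 (SE 0.06, edgeR adjusted p = 0.0038), and it differed by -0.04 (SE 0.05, edgeR adjusted p = 0.65) in PC3. NDUFA4, once assigned to complex I, differed by 0.06 (SE 0.05, edgeR adjusted p = 0.36) and 0.06 (SE 0.05, edgeR adjusted p = 0.45) after siLARP4A. COX6B2, the testis-type isoform, was barely listed at 0.372 and 0.452 FPKM in the siControl libraries, 1.11 and 1.23 after siLARP4A and 0.648 and 0.620 after siLARP4B of PC3 and under 0.1 FPKM in every MG63 library. Its rise after siLARP4A in PC3, 1.51 (SE 0.32, edgeR adjusted p = 0.002), rests on that low level. The ubiquitous COX6B1 fell by 0.21 (SE 0.06, edgeR adjusted p = 0.017) and COX7A2 by 0.19 (SE 0.06, edgeR adjusted p = 0.027) in PC3, and neither passed the test in MG63, with -0.13 and -0.04. Both PC3 calls were lost with every mRNA length offset, with values up to -0.10 and -0.05, and under 7 and 8 of 20 alternatives in all. NDUFA4L2, the hypoxia-linked paralog of NDUFA4, was at 0.446 to 2.16 FPKM and did not pass the test after either siRNA.

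In complex V the lowest values after siLARP4A in PC3 belonged to the inhibitor ATP5IF1, to ATP5ME, a subunit at the membrane interface between synthase monomers, and to the c-subunit gene ATP5MC1. ATP5IF1 stood at 56.8 and 54.1 FPKM in the siControl libraries, 32.6 and 38.2 after siLARP4A and 53.0 and 50.7 after siLARP4B of PC3 and at 42.5 and 41.4 FPKM in the siControl libraries, 33.0 and 35.5 after siLARP4A and 45.6 and 44.7 after siLARP4B of MG63. Its siLARP4A libraries were the lowest of each line, with -0.64 (SE 0.07, edgeR adjusted p = 7.9e-06) and -0.29 (SE 0.07, edgeR adjusted p = 0.0091). ATP5ME fell in PC3 by 0.58 (SE 0.07; edgeR adjusted p = 1.6e-05) and differed by -0.20 (SE 0.08, edgeR adjusted p = 0.083) in MG63. The 3 c-subunit genes encode the same mature protein and moved unequally. ATP5MC1 stood at 184 and 192 FPKM in the siControl libraries, 124 and 144 after siLARP4A and 215 and 209 after siLARP4B of PC3, and after siLARP4A it fell in both lines, with -0.47 (SE 0.07, edgeR adjusted p = 5.8e-05) in PC3 and -0.31 (SE 0.07, edgeR adjusted p = 0.0034) in MG63. ATP5MC2 changed by -0.19 (SE 0.06, edgeR adjusted p = 0.033) in PC3 and differed by -0.09 (SE 0.06, edgeR adjusted p = 0.37) in MG63, and ATP5MC3 differed by -0.01 (SE 0.05, edgeR adjusted p = 0.89) and -0.03 (SE 0.05, edgeR adjusted p = 0.74).

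ATP5F1B, the catalytic beta subunit, was the most abundant of these transcripts per kilobase in the siControl libraries of both lines. It stood at 708 and 717 FPKM in the siControl libraries, 539 and 546 after siLARP4A and 520.1 and 513 after siLARP4B of PC3, and at 399.9 and 419 FPKM in the siControl libraries, 310.0 and 316 after siLARP4A and 388 and 382 after siLARP4B of MG63. After siLARP4A it changed by -0.38 (SE 0.03, edgeR adjusted p = 8e-07) in PC3 and -0.39 (SE 0.03, edgeR adjusted p = 1.2e-06) in MG63, nearly the same in both lines. After siLARP4B it changed by -0.47 (SE 0.03, edgeR adjusted p = 3.4e-08) in PC3, where both siRNA groups lay below siControl without overlap, and by -0.07 (SE 0.03, edgeR adjusted p = 0.14) in MG63. ATP5F1A, the alpha subunit that alternates with it in the catalytic head, differed by -0.09 (SE 0.04, edgeR adjusted p = 0.088) in PC3 and changed by -0.13 (SE 0.04, edgeR adjusted p = 0.022) in MG63 after siLARP4A. It rose after siLARP4B in both lines, by 0.15 (SE 0.04, edgeR adjusted p = 0.0048) and 0.34 (SE 0.04, edgeR adjusted p = 8.6e-06).

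Subunit transcripts showed no common direction after siLARP4B in PC3 and were mostly higher in MG63. In PC3, 11 of the 78 genes rose and 11 fell, 28.2% in all, where 42.8% of all genes were called, 22.9% as higher and 20.0% as lower. The median was 0.01 against 0.04 for all genes tested. This split depended on the scaling, with 3 higher and 13 lower under DESeq2's size factors and 18 higher and 7 lower without TMM scaling. Complex I had 6 genes higher and 4 lower, complex II 1 lower, complex III 1 of each, complex IV 2 higher, and complex V 2 higher and 5 lower. Among genes with a mean of at least 5 FPKM, the highest call of complex I was NDUFA2, 0.23 (SE 0.09, edgeR adjusted p = 0.044), and the only higher one of complex III was UQCR11, 0.19 (SE 0.07, edgeR adjusted p = 0.031). The NDUFA2 call was lost under 13 of 20 alternatives, with 0.07 to 0.38 when 1 library was left out, and that of UQCR11 under 8. Without PC3 siControl replicate 2, no gene was called higher and 12 were called lower, and leaving out any of the 4 libraries left 11 to 13 calls.

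In MG63, 34 of the 78 rose after siLARP4B and 4 fell, where 32.5% of all genes were called, 16.8% as higher and 15.7% as lower. The median was 0.14 against 0.00 for all genes tested. Complex I had 9 genes higher and 2 lower, complex II 3 higher and 1 lower, complex III 3 higher, complex IV 8 of 13 higher, and complex V 11 of 18 higher and 1 lower. All 4 peripheral stalk genes of ATP synthase rose, namely ATP5PB, ATP5PD, ATP5PF and ATP5PO, and ATP5PB changed by 0.32 (SE 0.04, edgeR adjusted p = 2e-05). ATP5PD overlaps KCTD2 and ATP5PF overlaps GABPA on the other strand. The log2 fold changes of these partners were 0.76 and -0.05, and without strand information reads of the overlaps cannot be told apart. In complex IV, COX7B rose by 0.36 (SE 0.07, edgeR adjusted p = 0.0012), and in complex I NDUFS3, a core subunit of the peripheral arm, rose by 0.28 (SE 0.07, edgeR adjusted p = 0.0066) and the accessory subunit NDUFA12 by 0.30 (SE 0.07, edgeR adjusted p = 0.0046). These rises were small, at most 1.31-fold for SDHA among the genes called, and the counts were 20 higher and 4 lower with the deduplicated table of 1 PC3 library in the fit. Without MG63 siControl replicate 1 they were 22 higher and 2 lower, and without MG63 siControl replicate 2 or MG63 siLARP4B replicate 1 they were 18 higher and 2 lower.

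After siLARP4B, 5 genes rose in both lines (ATP5F1A, COX6A1, NDUFA10, NDUFS7 and NDUFV2), 3 fell in both (ATP5F1E, NDUFB2 and SDHC), and 2 fell in PC3 and rose in MG63 (ATP5F1D and ATP5MC3). The shares of all genes tested with these patterns were not counted. COX6A1, the ubiquitous form of subunit VIa, changed by 0.20 (SE 0.05, edgeR adjusted p = 0.0048) and 0.23 (SE 0.05, edgeR adjusted p = 0.0036). NDUFS7, an iron-sulfur core subunit, changed by 0.21 (SE 0.08, edgeR adjusted p = 0.034) and 0.28 (SE 0.08, edgeR adjusted p = 0.016). Its PC3 value turned to -0.02 with an offset for mRNA length and GC content. The opposite pair were small: ATP5F1D, the delta subunit, changed by -0.18 (SE 0.06, edgeR adjusted p = 0.021) and 0.17 (SE 0.06, edgeR adjusted p = 0.047), and ATP5MC3 by -0.14 (SE 0.05, edgeR adjusted p = 0.031) and 0.14 (SE 0.05, edgeR adjusted p = 0.048). Of 20 alternatives, 3 ended the PC3 call and 11 the MG63 call of ATP5F1D, and 7 and 10 those of ATP5MC3. Of the genes called the same way in both lines, only ATP5F1E and NDUFB2 kept both calls under every alternative. Over the 76 genes, the log2 fold changes in PC3 and MG63 had a Pearson r of 0.703 and a Spearman rho of 0.375, and r was 0.405 without NDUFB2 and ATP5F1E, so the Pearson value rested largely on those. Over all 78 genes r was 0.701 and rho 0.366, and over all genes tested they were 0.175 and 0.27.

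NDUFB2 and ATP5F1E had the largest falls after siLARP4B. NDUFB2, an accessory subunit of the membrane arm of complex I, lies at chr7:140696708-140706643 on the plus strand. It stood at 206 and 195 FPKM in the siControl libraries, 155 and 188 after siLARP4A and 94.2 and 90.1 after siLARP4B of PC3. Its siLARP4B libraries were the lowest, with -1.13 (SE 0.09, edgeR adjusted p = 1.3e-07), or 45.7% of siControl, and after siLARP4A it differed by -0.22 (SE 0.09, edgeR adjusted p = 0.072). In MG63 it stood at 91.3 and 86.0 FPKM in the siControl libraries, 85.7 and 83.2 after siLARP4A and 61.9 and 51.1 after siLARP4B, with -0.63 (SE 0.10, edgeR adjusted p = 0.00018) after siLARP4B and -0.07 (SE 0.10, edgeR adjusted p = 0.66) after siLARP4A. The antisense gene NDUFB2-AS1, which overlaps it on the other strand, was lower after siLARP4B too, with -1.09 in PC3 and -0.71 in MG63, and without strand information the reads of the overlap cannot be told apart.

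ATP5F1E, the epsilon subunit in the central stalk of ATP synthase, lies at chr20:59025475-59032335 on the minus strand. It stood at 46.0 and 45.5 FPKM in the siControl libraries, 46.2 and 45.9 after siLARP4A and 20.8 and 21.4 after siLARP4B of PC3. In MG63 it stood at 29.0 and 30.4 FPKM in the siControl libraries, 31.0 and 28.9 after siLARP4A and 20.1 and 20.9 after siLARP4B. The siLARP4B libraries were the lowest of each line without overlap, and siLARP4A overlapped siControl in both lines. The log2 fold changes after siLARP4B were -1.12 (SE 0.05, edgeR adjusted p = 4.9e-10) in PC3 and -0.52 (SE 0.05, edgeR adjusted p = 4.5e-06) in MG63, and after siLARP4A 0.02 (SE 0.05, edgeR adjusted p = 0.78) and 0.01 (SE 0.05, edgeR adjusted p = 0.92). ATP5F1E shares its locus with the read-through gene SLMO2-ATP5E on the same strand, whose log2 fold changes after siLARP4B were -0.65 (PC3) and -0.25 (MG63), and with TUBB1 on the other strand. SLMO2-ATP5E held more fragments over the 12 libraries, 41526 against 26871 for ATP5F1E, and its mean in PC3 siControl was 232 FPKM. How reads that fit both were assigned is not given in the sources used here. The FPKM values of ATP5F1E are per kilobase of its only model, whose mRNA has 3610 bases.

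The promoter sequences of COX7C, NDUFB2 and ATP5F1E are shown because these genes had the largest falls after siLARP4A and siLARP4B, and SDHD is added as a gene that fell after siLARP4A in both lines and whose promoter holds 2 of the motifs searched. Each is the 250 bases before the annotated start, read 5′ to 3′ on the gene's strand from RefSeq, GRCh38.p14. Capitals mark the motifs found: in COX7C the reverse complement of the YY1 core AAGATGG, and in SDHD the NRF1 core GCATGCGC, found on both strands as overlapping matches, and the reverse complement of the ETS family motif CCGGAAG.
COX7C, chr5:86617691-86617940, plus strand: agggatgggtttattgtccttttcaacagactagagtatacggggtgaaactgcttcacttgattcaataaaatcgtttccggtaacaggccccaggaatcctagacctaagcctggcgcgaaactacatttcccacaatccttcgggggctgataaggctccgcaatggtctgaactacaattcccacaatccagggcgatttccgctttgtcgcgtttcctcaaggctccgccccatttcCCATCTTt
NDUFB2, chr7:140696458-140696707, plus strand: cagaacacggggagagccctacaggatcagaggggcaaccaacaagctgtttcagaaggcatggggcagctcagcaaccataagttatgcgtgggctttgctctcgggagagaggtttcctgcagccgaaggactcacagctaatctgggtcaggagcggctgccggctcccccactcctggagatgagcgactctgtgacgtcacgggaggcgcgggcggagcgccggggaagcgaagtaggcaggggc
ATP5F1E, chr20:59032336-59032585, minus strand: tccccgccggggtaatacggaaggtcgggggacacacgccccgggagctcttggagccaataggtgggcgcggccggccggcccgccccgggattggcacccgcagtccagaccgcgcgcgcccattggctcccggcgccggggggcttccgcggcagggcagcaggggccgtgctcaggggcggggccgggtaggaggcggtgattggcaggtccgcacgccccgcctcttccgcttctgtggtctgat
SDHD, chr11:112086623-112086872, plus strand: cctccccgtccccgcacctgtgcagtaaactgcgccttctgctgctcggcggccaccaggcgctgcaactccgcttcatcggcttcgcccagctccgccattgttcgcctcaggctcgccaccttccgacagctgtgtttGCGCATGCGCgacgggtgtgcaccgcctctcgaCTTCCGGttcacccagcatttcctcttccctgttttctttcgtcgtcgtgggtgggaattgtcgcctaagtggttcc

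These motifs were searched on both strands in windows from 250 bases before to 50 bases after the start. NRF1 and the ETS factor GABP are known regulators of respiratory chain genes. Of the 85 genes, 69 had a promoter in the RefSeq table. The NRF1 core was found in 12 of the 69 (17.4%), against 2.81% of all 27305 promoters and 4.48% of those of the genes tested. The ETS motif was found in 17 (24.6%), against 8.82% and 14.6%. The YY1 core was found in 4 (5.80%), against 3.77% and 3.38%. The median GC content of these windows was 60.8% for the subunit genes and 58.0% for all promoters. The promoters of NDUFB2 and ATP5F1E held none of these letters, and a match is a string in a window, not a measured binding site.

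Compared directly with siLARP4B, siLARP4A gave lower levels of most subunit transcripts in both lines. In PC3, 45 of 78 genes were lower after siLARP4A than after siLARP4B and 8 were higher, where 51.5% of all genes were called, 26.2% as lower and 25.3% as higher. In MG63, 54 were lower and 5 higher, where 41.5% of all genes were called, 21.1% as lower and 20.4% as higher. The medians were -0.20 and -0.25 against -0.01 and 0.00 for all genes tested. In complex IV 10 of 13 genes were lower in each line, and in complex V 8 of 18 in PC3 and 16 of 18 in MG63. With an offset for mRNA length, 30 were lower and 11 higher in PC3 and 42 lower and 4 higher in MG63.

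**Figure D4:**
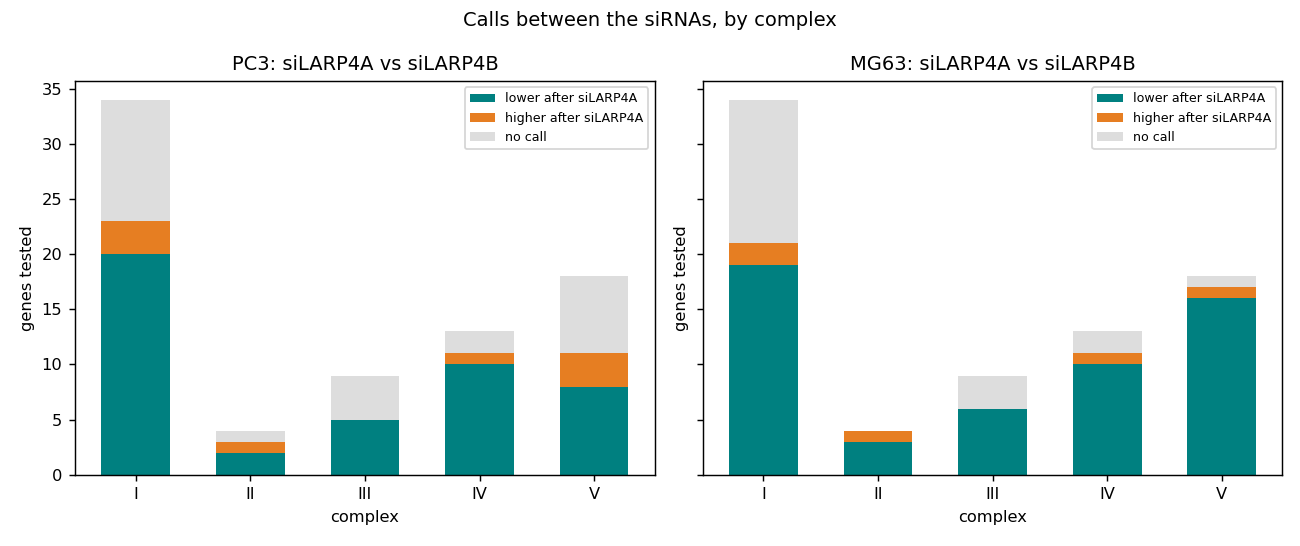
Number of subunit genes of each complex that were lower, higher or not called in siLARP4A against siLARP4B libraries of each line; bar height is the number of genes tested. Lower calls make up most of the bar in complexes I, III and IV of PC3 (20 of 34, 5 of 9 and 10 of 13). In MG63 they do so in every complex, from 19 of 34 in complex I to 16 of 18 in complex V.

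The comparisons of the siRNAs in PC3 and MG63 share no library, and 34 genes were lower after siLARP4A in both. Those 34 were 75.6% of the 45 genes lower in PC3 and 63.0% of the 54 lower in MG63. The matching shares over all genes tested were not counted. Only NDUFB2, ATP5F1E and SDHC were higher after siLARP4A in both lines. ATP5F1B, ATP5MC3 and COX7A2L took opposite sides: ATP5F1B was 0.09 (SE 0.03, edgeR adjusted p = 0.032) in PC3 and -0.32 (SE 0.03, edgeR adjusted p = 2.9e-06) in MG63. COX7C showed the largest difference between the siRNAs, -1.40 (SE 0.06, edgeR adjusted p = 5.8e-11) in PC3 and -0.79 (SE 0.06, edgeR adjusted p = 8.2e-08) in MG63. SDHD differed by -0.24 (SE 0.05, edgeR adjusted p = 0.0015) in PC3 and -0.77 (SE 0.05, edgeR adjusted p = 4.4e-08) in MG63.

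The size of the effects was then compared between lines with an interaction term. For siLARP4A, 8 of the 78 genes differed, all with a more negative value in PC3, where 9.97% of all genes differed, 5.03% lower and 4.95% higher. They were COX7C, COX8A and COX7A2L of complex IV, ATP5ME and ATP5IF1 of complex V, NDUFA7 and NDUFS3 of complex I, and SDHA. The share was near the background in number (10.3%) and the direction was the same in all 8. COX7C differed most, by -0.71 (SE 0.08, edgeR adjusted p = 0.0001). With the deduplicated table of 1 PC3 library in the fit 5 genes were called and the edgeR adjusted p of COX7C was 0.12. Without PC3 siControl replicate 1 only 1 gene was called, and without PC3 siLARP4A replicate 1 or MG63 siLARP4A replicate 2 there were 5.

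For siLARP4B, 19 genes differed, again all with a more negative value in PC3, where 25.0% of all genes differed, 13.7% lower and 11.3% higher. Complex V gave 8 of the 18 genes tested, including all 5 F1 genes ATP5F1A to ATP5F1E, and complex II 3 of 4. ATP5F1E differed by -0.61 (SE 0.08, edgeR adjusted p = 4.9e-05), NDUFB2 by -0.50 (SE 0.14, edgeR adjusted p = 0.014), ATP5PB by -0.42 (SE 0.06, edgeR adjusted p = 9.3e-05) and SDHA by -0.38 (SE 0.07, edgeR adjusted p = 0.0013). The count ranged from 10 lower and 2 higher without TMM scaling to 26 lower with DESeq2's size factors, it was 32 lower with an offset for mRNA length, and it was 12 lower without PC3 siLARP4B replicate 2. The targets themselves were depleted further in PC3, with differences of -1.02 (SE 0.10, edgeR adjusted p = 2.2e-05) for LARP4 after siLARP4A and -0.75 (SE 0.11, edgeR adjusted p = 0.00014) for LARP4B after siLARP4B, and the part of this in the line differences was not tested.

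**Figure D5:**
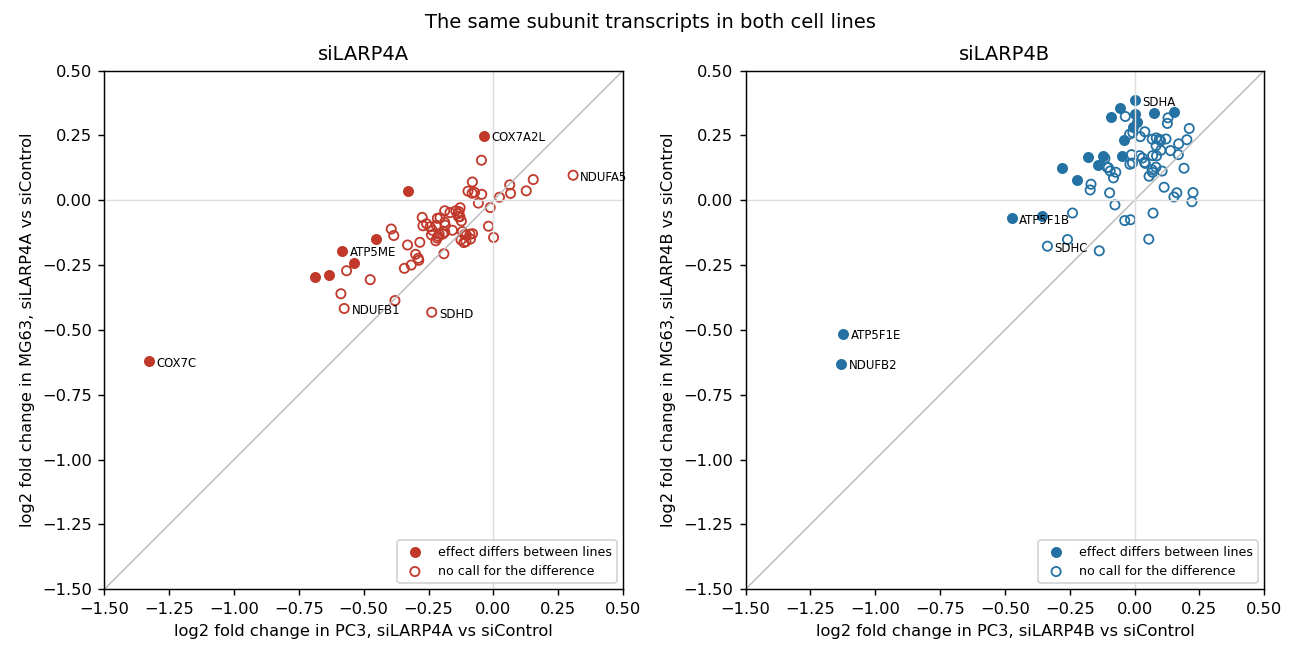
Log2 fold change of each subunit gene with a mean of at least 5 FPKM in PC3 (x axis) and MG63 (y axis) after each siRNA; filled points have an effect that differs between lines at an adjusted p of 0.05, and the diagonal marks equal values. After siLARP4A most points lie in the lower left with COX7C at -1.33 and -0.62. NDUFB2 and ATP5F1E stand apart after siLARP4B, and most other points are positive on the MG63 axis.

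Between the siControl groups, the lines themselves differed in these transcripts. Of the 78 genes, 45 were higher in PC3 siControl than in MG63 siControl and 17 lower, where 80.8% of all genes were called, 40.7% as higher and 40.1% as lower, so the share called (79.5%) was at the background. The median was 0.27 against -0.01 for all genes tested. Without TMM scaling the counts were 54 higher and 9 lower and the median over all genes shifted by 0.16. Complex IV leaned furthest, with 11 of 13 genes higher in PC3, none lower and a median of 0.73, and complex V had 11 higher and 5 lower. COX7B, a small complex IV subunit, stood at 53.9 and 54.3 FPKM in the siControl libraries, 45.4 and 44.3 after siLARP4A and 50.6 and 54.1 after siLARP4B of PC3 and at 11.9 and 12.5 FPKM in the siControl libraries, 10.9 and 11.97 after siLARP4A and 14.9 and 15.9 after siLARP4B of MG63, a siControl difference of 1.97 (SE 0.07, edgeR adjusted p = 2.2e-13). ATP5MPL differed by 1.68 (SE 0.08, edgeR adjusted p = 6.9e-12) and NDUFA1 by 1.66 (SE 0.09, edgeR adjusted p = 5.5e-11). On the other side ATP5F1C, the gamma subunit of the central stalk, was lower in PC3, with -0.83 (SE 0.05, edgeR adjusted p = 5.2e-10), and so were NDUFA9, with -0.72 (SE 0.06, edgeR adjusted p = 4e-08), and NDUFS4, with -0.60 (SE 0.06, edgeR adjusted p = 1.2e-07).

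Genes that build or accompany the complexes were counted from lists of related genes. After siLARP4A 33.6% of all genes tested were called in PC3 and 24.8% in MG63, and after siLARP4B 42.8% and 32.5%. Of 26 complex IV assembly factors, 13 fell and 3 rose after siLARP4A in PC3, and 6 fell and 2 rose in MG63, or 61.5% and 30.8% called. COX14, HIGD2A and PET100 led in PC3 with -0.71 (edgeR adjusted p = 0.00016), -0.66 (edgeR adjusted p = 2.8e-06) and -0.66 (edgeR adjusted p = 2.8e-05), and COX10, the haem A farnesyltransferase, rose in both lines, by 0.35 (edgeR adjusted p = 0.0021) and 0.43 (edgeR adjusted p = 0.001). Of 19 complex I assembly factors, 6 fell in PC3 and 5 in MG63 and none rose, with DMAC1 at -1.12 (edgeR adjusted p = 4e-07) and -0.58 (edgeR adjusted p = 0.00079). Of 6 complex V assembly factors, FMC1 and ATPAF1 fell in both lines and no other was called, FMC1 with -1.39 (edgeR adjusted p = 3.6e-07) and -0.52 (edgeR adjusted p = 0.0075). Of 6 complex III assembly factors, 3 fell in PC3 and 2 in MG63, TTC19 in both. Of 4 complex II assembly factors, 1 fell and 1 rose in PC3 and none was called in MG63. The shares called of complex I assembly factors (31.6% in PC3 and 26.3% in MG63) and, in PC3, of complex V assembly factors (33.3%) were near those of all genes.

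After siLARP4B the same lists gave 5 higher and 4 lower in PC3 and 8 higher and 1 lower in MG63 for complex IV assembly, 34.6% called in each line, below the share of all genes in PC3 and near it in MG63. Complex I assembly gave 1 higher and 4 lower in PC3, then 4 higher and 3 lower in MG63, with NDUFAF3 lower in both, with -0.66 (edgeR adjusted p = 2.9e-06) and -0.44 (edgeR adjusted p = 0.00073). Complex III assembly gave 2 higher and 3 lower, then 2 higher, complex V assembly 2 higher, then 1 higher, and complex II assembly 2 higher and 1 lower, then none. The share of complex I assembly factors called was 26.3% in PC3 and 36.8% in MG63, and the other lists here hold 6 genes or fewer.

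Subunits and electron carriers outside the name patterns form another list. Of the 14 tested, 7 fell after siLARP4A in PC3 and 4 in MG63 and none rose, and after siLARP4B 2 rose and 4 fell in PC3 and 3 rose and 5 fell in MG63. Their shares called after siLARP4A were 50% in PC3 and 28.6% in MG63, the latter near that of all genes, and after siLARP4B 42.9% and 57.1%, the former at that of all genes. ETFA, a subunit of the electron transfer flavoprotein, was lower after siLARP4A, with -0.51 (edgeR adjusted p = 5.1e-06) in PC3 and -0.27 (edgeR adjusted p = 0.0015) in MG63. CYCS, cytochrome c, fell after siLARP4A in both lines, with -0.26 (edgeR adjusted p = 9.8e-05) in PC3 and -0.23 (edgeR adjusted p = 0.00068) in MG63. After siLARP4B it took opposite directions, -0.12 (edgeR adjusted p = 0.017) in PC3 and 0.49 (edgeR adjusted p = 3.7e-07) in MG63, and the difference between the lines was -0.61 (edgeR adjusted p = 2.4e-06). COX4I1, the main form of subunit IV, rose after siLARP4B by 0.16 (edgeR adjusted p = 0.021) in PC3 and 0.28 (edgeR adjusted p = 0.00097) in MG63. Of 14 tricarboxylic acid cycle enzymes, 6 fell and 1 rose after siLARP4A in PC3 and 4 fell in MG63, while after siLARP4B 3 rose and 3 fell in PC3 and 7 rose in MG63. For these enzymes too the shares called in MG63 after siLARP4A (28.6%) and in PC3 after siLARP4B (42.9%) were near those of all genes. Of 11 genes of inner membrane organisation tested, 6 fell in PC3 and 2 in MG63 after siLARP4A, with APOO at -0.81 (edgeR adjusted p = 4.6e-06) and -0.43 (edgeR adjusted p = 0.0013) and OPA1 at -0.63 (edgeR adjusted p = 4e-06) and -0.31 (edgeR adjusted p = 0.0037), and after siLARP4B 2 rose and 2 fell in PC3 and 3 rose and 1 fell in MG63. Their share called was 54.5% in PC3 and 18.2% in MG63 after siLARP4A and 36.4% in both lines after siLARP4B.

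Of 13 regulators of mitochondrial biogenesis, 1 rose and 2 fell after siLARP4A in PC3 and 1 fell in MG63, shares of 23.1% and 7.69% that were below those of all genes. After siLARP4B 2 rose and 5 fell in PC3, and 5 rose and 1 fell in MG63, shares of 53.8% and 46.2%. YY1 fell in both lines after siLARP4B, with -0.55 (edgeR adjusted p = 8.1e-07) and -0.21 (edgeR adjusted p = 0.0084), and the nuclear receptor gene ESRRA rose in both, by 0.37 (edgeR adjusted p = 7.6e-05) and 0.43 (edgeR adjusted p = 5.7e-05). PPARGC1B, a coactivator of mitochondrial genes, took opposite signs, -0.46 (edgeR adjusted p = 0.00044) in PC3 and 0.92 (edgeR adjusted p = 9.1e-05) in MG63, where its level was low, with means of 0.433 FPKM in siControl and 0.808 after siLARP4B. The transcription factor B genes TFB1M and TFB2M were lower after siLARP4A in PC3, with -0.31 (edgeR adjusted p = 0.033) and -0.63 (edgeR adjusted p = 6.2e-06).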

How the data were processed

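Fragment counts per transcript model and FPKM values were deposited by the authors as 1 table per library, per the file headers, and FPKM divides the count by mRNA length and by library size. FastQC, HISAT2, featureCounts and edgeR and the build hg38 are named in the submitters' processing notes, without roles or versions, and the annotation and the use of strand are not given in the sources used here. Totals were 16950119 to 24864977 fragments per library, and standard errors from the fit hold both counting error and the spread between libraries.

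Of 86394 models, 78362 on chromosomes 1 to 22, X and Y were kept, and each of the 28278 symbols was represented by its model with the highest fragment sum. The 1810 symbols found at several loci were kept and left out as an alternative. Tests on the counts used edgeR 4.0.16, run in R 4.3.3 (TMM scaling, filterByExpr, 1 mean per group, all 12 libraries, quasi-likelihood F-test), which was first tested on simulated counts. Adjusted p-values are Benjamini-Hochberg over 16091 genes in each of 9 comparisons. The biological coefficient of variation was 5.56% (common dispersion 0.00309). Alternatives used DESeq2 1.42.0, limma 3.58.1 on log2(FPKM + 1) and log2(FPKM + 0.1), other scalings and filters, offsets for mRNA length and GC content (GC known for 94.2% of the genes tested), a replicate block, the deduplicated table deposited for 1 library, and leaving out each library. Deviations of same-numbered libraries correlated at -0.0654 to 0.147 between groups, so no strong shared deviation was seen. Whether same-numbered libraries were prepared together is not known, and the main fit did not pair them.

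The genes and lists were chosen with earlier results of these data known. Named are LARP4 and LARP4B, in each comparison with siControl the highest and lowest gene called per complex with a mean of at least 5 FPKM and no overlap of libraries, genes called in the same direction in both lines or for the difference between lines, the 3 highest and lowest between lines, isoform families, genes not reaching 1 FPKM, and up to 3 genes per direction of each related list. The lists are assembly factors of complexes I to V, subunits and carriers outside the name patterns, tricarboxylic acid cycle enzymes, inner membrane organisation and biogenesis regulators. Promoter sequences came from RefSeq (GRCh38.p14), matched by symbol.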

Additional observations from a re-analysis of the deposited data

Results flagged for a closer look

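An interaction term in edgeR's fit called 27 gene and siRNA pairs different between PC3 and MG63, counting each siRNA on its own. The share of the 78 subunit genes called was 10.3% for siLARP4A and 24.4% for siLARP4B. Over all genes tested it was 9.97% and 25.0%, so both shares were at the background. For siLARP4A, the log2 fold change in PC3 minus that in MG63 was past an adjusted p of 0.05 for COX7C (-0.71), NDUFA7 (-0.39), ATP5ME (-0.39), NDUFS3 (-0.37), ATP5IF1 (-0.35), COX8A (-0.30), SDHA (-0.30) and COX7A2L (-0.29). For siLARP4B it was past the threshold for ATP5F1E (-0.61), NDUFB2 (-0.50), ATP5PB (-0.42), COX7B (-0.41), ATP5F1C (-0.40), ATP5F1B (-0.40), SDHA (-0.38), ATP5F1D (-0.35), SDHD (-0.33), NDUFS6 (-0.30), UQCRFS1 (-0.30), ATP5PF (-0.29), NDUFA12 (-0.29), NDUFS3 (-0.29), ATP5MC3 (-0.27), COX5B (-0.27), SDHB (-0.26), NDUFB9 (-0.22) and ATP5F1A (-0.19). Every one of these differences was negative, meaning lower after the siRNA in PC3 relative to MG63. NDUFS3, a core subunit of complex I, and SDHA differed after both siRNAs, and these share the siControl libraries.

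The groups hold 2 libraries each, so no group was large enough to look for a single library that lies far from the others.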

How the results depend on the processing

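With 2 libraries per group, the number of genes called moved with the libraries left out, and a call lost that way has fewer libraries behind it. Leaving out 1 library at a time gave 27 to 49 genes called for siLARP4A in PC3 (43 with all libraries), 11 to 13 for siLARP4B in PC3 (22), 7 to 11 for siLARP4A in MG63 (21), 20 to 33 for siLARP4B in MG63 (38), 39 to 53 for siLARP4A against siLARP4B in PC3 (53), 41 to 54 in MG63 (59), 1 to 10 and 12 to 28 for the differences between lines after siLARP4A (8) and siLARP4B (19), and 57 to 60 between the lines (62). DESeq2's Wald test called 13 genes for siLARP4B in PC3. For siLARP4A in MG63 an offset for mRNA length gave 13 calls and a fit of only the libraries compared gave 34. With the deduplicated table in the fit, siLARP4B in MG63 gave 24 calls and the line difference after siLARP4A gave 5. The line difference after siLARP4B gave 12 calls without TMM, 33 without the filter on low counts, 31 in a fit of only the libraries compared, and 32 with an offset for mRNA length or for length and GC content. That last offset was chosen after seeing the data. The shares of all genes tested called under these settings were not counted. A loss of calls particular to the subunit genes therefore cannot be told apart from a loss over all genes. The cause of these changes was not tested.

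The replicate numbers are not known to pair the libraries, and a replicate block changed no count by more than 1.5 times. With it, 43 genes were called for siLARP4A and 21 for siLARP4B in PC3, and 20 and 33 in MG63. Between the siRNAs 50 were called in PC3 and 59 in MG63. For the line differences there were 7 and 17, and between the lines 62. With the block and the length offset, siLARP4A in MG63 gave 13 calls and the line difference after siLARP4B gave 31, or 33 with the block, length and GC content. NDUFS7 after siLARP4B in PC3 turned from 0.21 to -0.0161 with the length and GC offset and to -0.0162 with the block added. Of 117 fold changes of named genes past the threshold, 56 stayed past it under every alternative run, 61 lost it under at least 1, among them the 1 that reversed. Of 38 that were not past it, 11 passed under at least 1.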
